A study of Mus musculus with 3 samples.

Results

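The 10 genes described here are the interleukin-6 family cytokines Il6, Lif, Osm, Il11 and Clcf1, the receptor genes Il6ra, Il6st, Lifr and Osmr, and the feedback inhibitor Socs3. They were chosen by symbol, and all 10 were found among the 31253 genes of the files. Their levels were measured in single cells of the mouse jaw, in 3 libraries named Ctrl, 1d and 7d. Wild-type C57BL/6 mice, all male and 10 weeks old, were used, 8 for each library and 24 in all. The head and neck of the mice of libraries 1d and 7d had received 10 Gy, and the mice were killed 1 day or 7 days later. Ctrl is labelled as the control and had no treatment. Jaw tissue was digested with collagenase, and the cells were frozen and thawed before capture on the 10x Genomics 3′ platform. The cells of the mice of a group were combined before the library was made, so each group was 1 library, the spread between mice is unknown, and no test between groups was possible.

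Cytokines of this family signal through cell surface complexes that share the chain gp130, the product of Il6st. IL-6 and IL-11 first bind a receptor of their own, while LIF and oncostatin M join gp130 to the LIF receptor or, for oncostatin M, to the oncostatin M receptor. JAK kinases bound to these chains activate STAT3, one of whose targets, Socs3, encodes a protein that blocks the same signal. In bone and periodontal tissue the family is known for acting on osteoblasts, osteoclast formation and inflammation.

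Counts were unique molecular identifiers (UMIs), each standing for 1 captured RNA molecule. Low-quality barcodes, most of which were dominated by haemoglobin, and called doublets were removed. This left 8623 Ctrl, 4879 1d and 6094 7d cells, with medians of 2419, 5022 and 3816.5 UMIs. Between 9 and 14 cell barcodes were shared by any pair of libraries. Clusters were named from marker lists as "-like" classes. The names were rebuilt for this work, so differences from the study may come from them. The mesenchymal pool joined 2 clusters, 1 that met the list of periodontal ligament and tendon markers and was led by Bmp2, and 1 that met the list of fibroblast markers and was led by Col1a1. It held 652 Ctrl, 225 1d and 86 7d cells, of which 270, 120 and 25 lay in the Bmp2 cluster, named from 3 of 10 markers, and 382, 105 and 61 in the Col1a1 cluster, named from 10 of 10. Cluster 21, led by Pf4, Itga2b and Cd34 and with Mpo among its leading genes, was left unnamed, as was cluster 16, which held 226 cells of Ctrl and no others. A level below, in CPM, is the UMIs of a gene per 1000000 UMIs summed over the cells of a class in a library. All intervals are exact 95% intervals and cover counting error only. A ratio to Ctrl is called higher at 2 or more and lower at 0.5 or less, and was called only where the 2 libraries held at least 20 UMIs of the gene. Both comparisons share the Ctrl library.

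The cells that held the cytokine RNA differed by cytokine and by library. Il6 encodes interleukin-6, a cytokine of inflammation and bone resorption. In Ctrl the mesenchymal pool held 49.6% of the 2268 Il6 UMIs and the mast cell or basophil-like cluster 38.8%. At 1d the mast cell or basophil-like cluster held 72.4% of 1038 Il6 UMIs and the pool 7.03%, and at 7d these shares of 1975 UMIs were 88.4% and 0.152%. The pool was thus the largest holder of Il6 in Ctrl and held 3 Il6 UMIs at 7d, while a cluster of 105 cells held most of the 7d library's Il6. A single Ctrl pool cell held 217 Il6 UMIs. Without it the Ctrl pool held 909, against 881 in the mast cell or basophil-like cluster. The endothelial cell-like cluster held 6.48%, 6.65% and 0.506% in Ctrl, 1d and 7d. Lif encodes leukaemia inhibitory factor. The pool held 84.5% of 1686 Lif UMIs in Ctrl, 55.7% of 842 at 1d and 1.72% of 464 at 7d, and cluster 21 held 24.6% at 1d and 44.2% at 7d. Il11 encodes interleukin-11, which acts on bone-forming and connective tissue cells. The pool held 92.0% of 515 Il11 UMIs in Ctrl, 82.3% of 158 at 1d and 8.26% of 109 at 7d, when cluster 21 held 39.4%. Lif and Il11 therefore had the same main holder in Ctrl and 1d, and cluster 21 held the largest share of both at 7d. Its cells were deep, with a median of 17279 UMIs over the 3 libraries, so a large share there need not mean a high level.

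**Figure D1:**
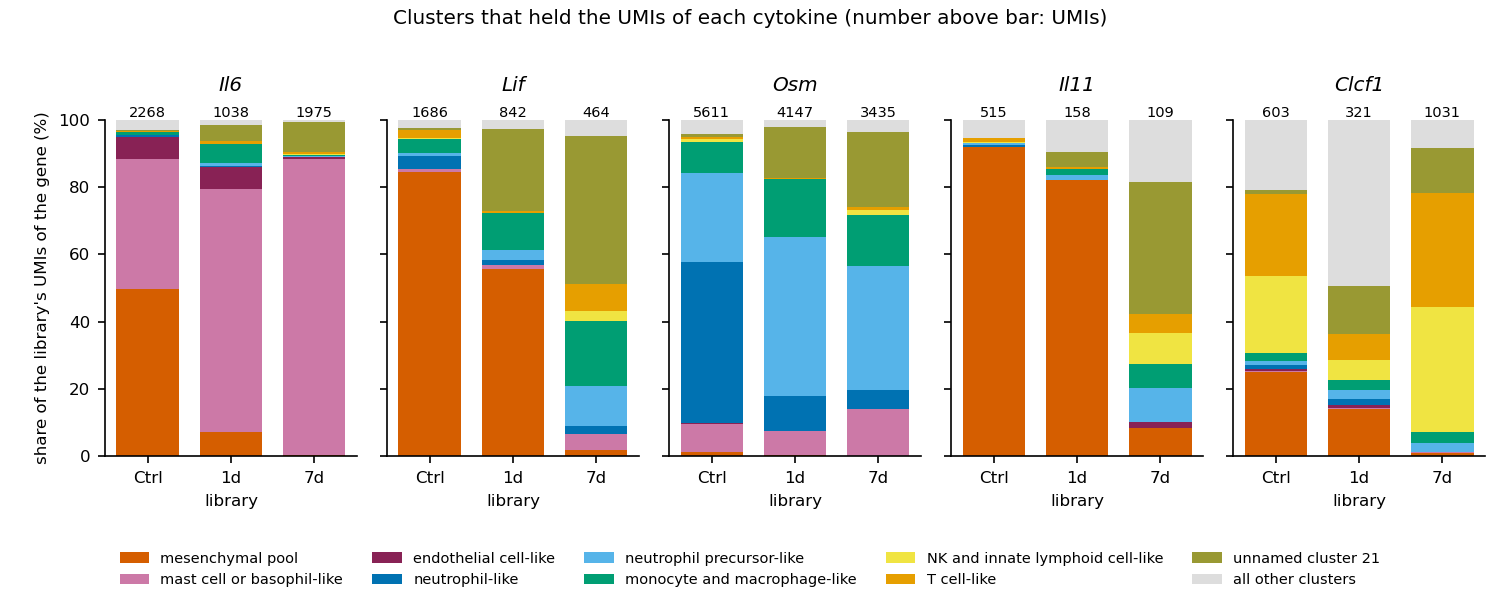
Share (%) of the UMIs of each cytokine gene held by each class in the libraries Ctrl, 1d and 7d, with the number of UMIs above each bar and 1 library a group. The dark orange part at the foot of each bar, the mesenchymal pool, is the largest for Il6, Lif and Il11 in Ctrl and holds 0.152%, 1.72% and 8.26% at 7d.

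Osm encodes oncostatin M, made mainly by myeloid cells. In Ctrl, neutrophil-like cells held 48.0% of 5611 Osm UMIs and neutrophil precursor-like cells 26.4%. At 1d neutrophil-like cells held 10.4% of 4147 UMIs and precursors 47.2%, and at 7d these shares of 3435 UMIs were 5.53% and 37.0%. Monocyte and macrophage-like cells held 9.30%, 17.2% and 15.3% in Ctrl, 1d and 7d, the mast cell or basophil-like cluster 8.54%, 7.33% and 13.9%, and the unnamed cluster 21 1.03%, 15.3% and 22.5%. Neutrophil-like cells themselves numbered 2681, 408 and 153. Clcf1 encodes cardiotrophin-like cytokine factor 1, a ligand of the ciliary neurotrophic factor receptor. Its UMIs were spread over the pool (24.9%), T cell-like cells (24.4%) and NK and innate lymphoid cell-like cells (22.9%) in Ctrl. At 1d the unnamed cluster 12, led by Ly6d and Rag1, held 22.4% of 321 Clcf1 UMIs and the pool 14.02%. At 7d NK and innate lymphoid cell-like cells held 37.3% and T cell-like cells 33.9% of 1031 Clcf1 UMIs. A share of this kind moves with the number of cells of the class that were captured and with their depth, as well as with the level per cell.

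Free RNA was read from the barcodes with over 50% haemoglobin UMIs that failed the cell filter. They numbered 2349, 756 and 1094 in Ctrl, 1d and 7d. They held no UMI of Lif, Il11 or Osmr in any library. Of Il6 they held 3, 0 and 2 UMIs, of Osm 3, 0 and 2 and of Lifr 3, 0 and 0. Socs3 had 7, 1 and 3, Clcf1 6, 0 and 1, and Il6ra and Il6st 0, 1 and 0 each. These barcodes held few other molecules, with medians of 32, 90.5 and 110 UMIs that were not haemoglobin. Per 1000000 such UMIs, Ctrl held Il6 at 29.5 (6.09 to 86.3), Clcf1 at 59.0 (21.7 to 128.5) and Socs3 at 68.9 (27.7 to 142). The Ctrl CPM of Il6 in monocyte and macrophage-like cells (8.57) and of Clcf1 in the pool (23.6) lay inside these intervals. In the pool, Il6 (177) and Socs3 (195) lay above them. Few UMIs here thus do not show that free RNA was low.

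In the mesenchymal pool, Il6 was lower than Ctrl at both times and Lif and Il11 were lower at 7d, while the shared receptor chain Il6st lay within 2-fold of Ctrl. Il6 stood at 177, 30.2 and 3.61 CPM in Ctrl, 1d and 7d. Its level in Ctrl was above the interval of either other library, and the 7d level came from 3 UMIs in 2 of 86 cells. The ratio to Ctrl was 0.170 at 1d (0.133 to 0.216) and 0.0204 at 7d (0.0042 to 0.0597). Without the single Ctrl cell that held 217 of the 1126 Il6 UMIs, the Ctrl level was 144. With called doublets kept the 1d ratio was 0.411; the 41 doublets that fell in the pool at 1d held 133 Il6 UMIs.

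Lif stood at 224, 194 and 9.63 CPM in the pool in Ctrl, 1d and 7d. The Ctrl and 1d levels lay close together, and the 7d level was below both. The ratios were 0.865 at 1d (0.778 to 0.961) and 0.0430 at 7d (0.0185 to 0.0849). The share of pool cells with a Lif UMI was 31.1%, 24.4% and 6.98%, with median depths of 7266.5, 9758 and 8521 UMIs. After each cell was thinned to 1000 UMIs it was 12.01% of 633 cells, 11.7% of 205 and 0 of 86, and in B cell-like cells, which are not known to make Lif, the unthinned shares were 0.0576%, 0.585% and 0% at median depths of 1912.5, 2646.5 and 1834 UMIs. Il11 stood at 74.6, 53.7 and 10.8, with ratios of 0.720 (0.589 to 0.876) and 0.145 (0.0660 to 0.278). Lif and Il11 thus shared an order, with Ctrl highest, 1d next and 7d lowest.

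The other cytokine genes were low in the pool. Clcf1 stood at 23.6, 18.6 and 9.63 CPM, with ratios of 0.788 (0.552 to 1.11) at 1d and 0.408 (0.173 to 0.825) at 7d. The 1d interval of Clcf1 includes 1. Osm stood at 9.60, 3.31 and 2.41, from 61, 8 and 2 UMIs, with a 1d ratio of 0.345 (0.142 to 0.723) that was 0.961 with doublets kept. Summed neutrophil markers, all 10 of which had a UMI in the pool in Ctrl and 1d and 6 of which had one at 7d, stood there at 2933, 1275 and 166 CPM. They moved with Osm, and their part in the pool's Osm was not tested.

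Of the receptors, Il6st, which encodes the shared chain gp130, stood at 140, 139 and 146 CPM in the pool in Ctrl, 1d and 7d. The 3 intervals overlapped, and the ratios were 0.994 (0.874 to 1.13) at 1d and 1.04 (0.855 to 1.26) at 7d. Osmr encodes the chain that oncostatin M uses beside gp130. It stood at 62.5, 41.3 and 27.7, with ratios of 0.662 (0.526 to 0.826) and 0.443 (0.278 to 0.674). Lifr, for the LIF receptor chain, stood at 100.1, 84.8 and 57.8, with ratios of 0.847 (0.720 to 0.993) and 0.577 (0.421 to 0.775). Osmr and Lifr both had their lowest level at 7d. The Lifr value at 7d depends on the doublet step. The 25 doublets of the 7d pool held 205 Lifr UMIs, 97 of them in 1 barcode, and with doublets kept the ratio was 2.14. Il6ra, for the receptor that binds IL-6 itself, was low in the pool at 14.6, 18.6 and 18.1. Socs3 stood at 195, 217 and 266, with ratios of 1.11 (1.00 to 1.23) and 1.36 (1.18 to 1.58), so Socs3 RNA was not lower at 7d in the pool, whose own Il6, Lif and Il11 were. Thinned to 1000 UMIs per cell, the 1d ratio of Socs3 was 0.763 (0.538 to 1.06).

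**Figure D2:**
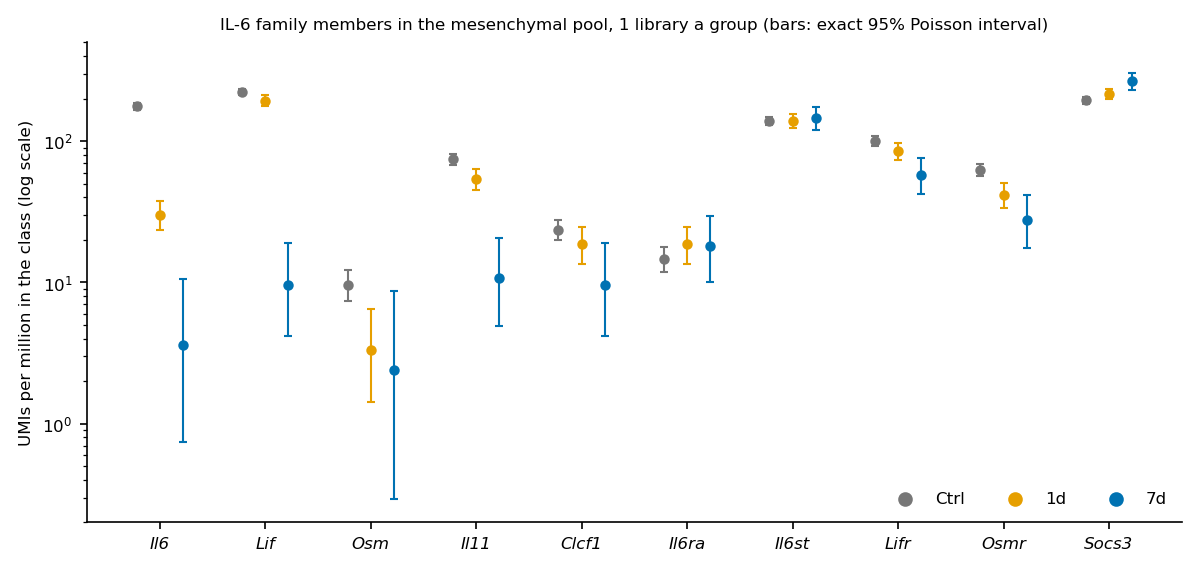
CPM (log axis) of the 10 genes in the mesenchymal pool of Ctrl, 1d and 7d, 1 library a group, with exact 95% Poisson intervals. Il6, Lif and Il11 at 7d stand at 3.61, 9.63 and 10.8, below both other libraries, while the 3 Il6st values lie between 139 and 146.

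All 10 genes had at least 20 UMIs in both comparisons of the pool. At 1d, 2 of the 10 were lower (Il6 and Osm) and 0 were higher, where 5.14% of 12054 genes of the pool were lower and 4.26% higher. At 7d, 6 of the 10 were lower (Il6, Lif, Osm, Il11, Clcf1 and Osmr) and 0 were higher, where 12.9% of 11696 genes were lower and 17.7% higher. The median log2 ratio of the 10 genes was −0.29 at 1d and −1.18 at 7d, beside 0.10 and 0.26 over all genes of the pool. TMM factors moved all log2 ratios by −0.11 in the 1d comparison and by −0.35 in the 7d one. With them 7 of the 10 were lower at 7d, Lifr among them at a ratio of 0.453, and the 7d ratios of Il6st, Il6ra and Socs3 were 0.818 (0.671 to 0.990), 0.968 (0.521 to 1.68) and 1.07 (0.924 to 1.24), so Il6st and Il6ra turned direction. The number lower at 7d was 5 with doublets kept, thinned or in the Col1a1 cluster alone. With doublets kept Clcf1 stood at a ratio of 0.582 and Osmr at 0.561, and in the Col1a1 cluster alone at 0.586 and 0.524.

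The pool was not uniform in these genes. At a finer clustering it fell into 5 subclusters, and in Ctrl most of its Il6 lay in 1 of them. The subcluster led by Rgs5 and Apod was left unnamed. Rgs5 and Cspg4 are both markers of pericytes. Cspg4 stood there at 37.3 CPM in Ctrl, the lowest of the 5 subclusters, from 13 UMIs. At 1d it stood at 122, the highest of the 5, from 2 UMIs in 4 cells. No name is drawn from these genes. The fibroblast marker Mfap5 was among the leading genes of this subcluster. In Ctrl the subcluster held 803 of the 1126 Il6 UMIs of the pool (71.3%) in 83 cells, at 2305 CPM. At 1d it held 4 cells with 22 Il6 UMIs, and at 7d 4 cells with none. It made up 12.7% of the Ctrl pool (10.3 to 15.5%), 1.78% of the 1d pool (0.486 to 4.49%) and 4.65% of the 7d pool (1.28 to 11.48%). The loss of these cells from the sample and a lower level per cell therefore cannot be told apart over the whole pool. Without this subcluster, an alternative chosen after seeing the data, the Il6 ratio was 0.395 at 1d (0.288 to 0.532) and 0.0686 at 7d (0.0141 to 0.202). In Ctrl the same subcluster also stood high in Socs3, at 827 CPM, and in Osmr, at 230.

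Within the subcluster led by the osteoblast gene Bglap, which kept 216, 84 and 42 cells, Il6 stood at 84.6, 33.0 and 6.17 CPM in Ctrl, 1d and 7d. Lif there stood at 208, 86.1 and 4.11 and Il11 at 61.3, 20.02 and 10.3. All 3 cytokines thus had the order of the whole pool inside 1 subcluster, with 1d ratios of 0.390 (0.263 to 0.563) for Il6, 0.413 (0.326 to 0.519) for Lif and 0.326 (0.195 to 0.520) for Il11. The 7d ratios were 0.0729 for Il6 (0.0149 to 0.216, from 3 UMIs), 0.0197 for Lif (0.00238 to 0.0716, from 2 UMIs) and 0.168 for Il11 (0.0537 to 0.399, from 5 UMIs). Of the 5 subclusters, this one had the highest Lifr in each library, at 195, 172 and 71.96, and Socs3 stood at 190, 335 and 319.

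The subcluster led by Enpp2 and Bmp2, of 161, 74 and 23 cells, went another way at 1d. Lif stood there at 291, 372 and 5.09 CPM, with a 1d ratio of 1.28 (1.12 to 1.46). It held 80.0% of the pool's Lif UMIs at 1d and 36.1% in Ctrl. Il11 stood at 131, 100.2 and 20.4 in the same cells, the highest Il11 of any subcluster in Ctrl and 1d. The subcluster led by Smoc2 and Ptn reached beyond the pool. Of its 167 cells, 9 lay in the monocyte and macrophage-like class, and taken whole it met the list of osteoclast markers, 3 of 9, at the finer clustering. Its pool cells, 110, 46 and 2 in Ctrl, 1d and 7d, held 179, 7 and 3 Lif UMIs. The subcluster led by Mmp3 and Crabp1 had 82, 17 and 15 cells, Il6 at 93.8, 142 and 0 and Il6st at 237, 249 and 334.

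Promoter sequences are given for Il6, Lif and Il11, the cytokine genes with the lowest 7d ratios in the pool, because all 3 were lower there at 7d. They come from RefSeq on GRCm38.p6, where 8 of the 10 genes had an entry and Osm and Clcf1 had none. They run 5′ to 3′ on the strand of the gene, ending at the base before the start site of the entry. Il11 had 2 entries. The one printed, entry 2, has its start site at 4778141, inside the gene, which runs from 4772373 to 4782859. Capitals mark matches to the AP-1 motif TGANTCA and, in Il6, to the NF-kB consensus. The Il6 stretch is chr5:30012864-30013113 on the plus strand, that of Lif is chr11:4257318-4257556 on the plus strand without 11 bases that lie in an annotated exon, and that of Il11 is chr7:4778142-4778391 on the minus strand.
Il6: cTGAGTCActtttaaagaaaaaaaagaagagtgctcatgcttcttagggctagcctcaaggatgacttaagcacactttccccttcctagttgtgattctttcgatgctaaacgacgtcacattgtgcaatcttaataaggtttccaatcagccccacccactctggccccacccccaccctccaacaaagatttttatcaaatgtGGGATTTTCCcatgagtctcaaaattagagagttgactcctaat
Lif: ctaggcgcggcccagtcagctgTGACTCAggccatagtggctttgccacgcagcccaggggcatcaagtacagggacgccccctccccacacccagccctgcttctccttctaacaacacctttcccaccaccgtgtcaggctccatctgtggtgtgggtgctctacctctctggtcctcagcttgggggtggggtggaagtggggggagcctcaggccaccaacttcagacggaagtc
Il11: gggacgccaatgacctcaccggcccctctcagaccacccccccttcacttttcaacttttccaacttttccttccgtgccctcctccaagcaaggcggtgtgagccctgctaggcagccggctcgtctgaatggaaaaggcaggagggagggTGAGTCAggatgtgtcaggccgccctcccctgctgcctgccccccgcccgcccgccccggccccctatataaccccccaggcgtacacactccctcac

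The AP-1 match lies 249 to 243 bases before the start in Il6, 228 to 222 in Lif and 98 to 92 in Il11. These distances count back from the start site of the RefSeq entry. Entry 1 of Il11, with its start site at 4782857, held 0 AP-1 matches. The NF-kB match of Il6 lies 44 to 35 bases before the start. The STAT motif TTCNNNGAA was found in Socs3, 154 to 146 bases before the start, in a stretch of which 77 bases lie in an annotated exon. Both strands were searched over 250 bases, and of 32851 promoters of that length 6.75% held TGANTCA, 3.9% the NF-kB consensus and 7.02% TTCNNNGAA. A match describes these letters and is not a bound site.

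The mast cell or basophil-like cluster held the highest Il6 level of any class in each library, and its Osm and Socs3 were lower after irradiation. The cluster had 63 Ctrl, 49 1d and 105 7d cells. Mcpt8, a protease of mouse basophils, was detected in 52.4%, 87.8% and 76.2% of the cells, while the mast cell proteases Mcpt4, Cma1 and Tpsb2 had 0 UMIs in Ctrl and were found in at most 2 cells each at 1d and 7 each at 7d. Il6 stood at 3465, 2123 and 2701 CPM. Ctrl was highest and 1d lowest, with ratios of 0.613 (0.555 to 0.676) at 1d and 0.780 (0.718 to 0.846) at 7d, neither of them past 2-fold. An Il6 UMI was found in 87.3%, 91.8% and 94.3% of the cells, at median depths of 3361, 5028 and 5425 UMIs, and after thinning to 1000 UMIs in 71.0% of 62 cells, 68.8% of 48 and 77.5% of 102. In B cell-like cells the unthinned shares were 0.173%, 0% and 0.223%.

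Osm stood at 1884, 858 and 740 CPM in the same cluster. The Ctrl level was above both others, with ratios of 0.456 (0.393 to 0.527) at 1d and 0.393 (0.345 to 0.447) at 7d. Il6 and Osm were found together in 52 of 63 Ctrl cells, 35 of 49 at 1d and 83 of 105 at 7d. Summed neutrophil markers in this cluster stood at 15598, 5790 and 389 CPM, and neutrophil-like cells themselves held Osm at 424 CPM in Ctrl. The markers moved with Osm, and their part in it was not tested. Socs3 stood at 385, 192 and 85.1, with ratios of 0.498 (0.360 to 0.686) and 0.221 (0.156 to 0.310). The neutrophil markers had the same order, and their part in Socs3 was not tested. Thinned to 1000 UMIs per cell, the 1d ratios were 0.589 for Osm and 0.570 for Socs3, no longer past 2-fold. Receptor RNA was scarce in the cluster. Lifr had no UMI in any library, which allows a level of up to 11.8, 8.47 and 4.64 CPM at 3 counts, Il6st had 2, 0 and 0 UMIs, and Osmr had 1, 1 and 0. Of the 4 genes with at least 20 UMIs, 2 were lower at 1d and the same number at 7d (Osm and Socs3), where 7.35% and 7.45% of the genes of the cluster were lower. None of the 4 was higher, where 16.1% and 22.8% of genes were.

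Endothelial cell-like cells were few, at 63, 9 and 25, so no ratio was called. Il6 stood there at 490, 1292 and 84.2 CPM, but a single cell held 56 of the 69 UMIs at 1d, and without it the 1d level was 281. At 7d a single cell held 9 of the 10 UMIs.

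In monocyte and macrophage-like cells, the IL-6 receptor gene Il6ra was higher at 7d, and Il6 was higher at 1d. Il6ra stood at 80.7, 161 and 279 CPM in the 503, 393 and 341 cells of Ctrl, 1d and 7d. The 3 intervals did not overlap, and the ratios were 1.997 (1.67 to 2.39) at 1d and 3.45 (2.91 to 4.11) at 7d. A UMI of Il6ra was found in 25.0%, 54.7% and 76.0% of the cells at median depths of 3499, 6022 and 5539 UMIs, and after thinning to 1000 UMIs in 9.46% of 465 cells, 17.6% of 381 and 23.1% of 338. In NK and innate lymphoid cell-like cells the unthinned shares were 1.43%, 0% and 1.01%, at median depths of 2792, 4381.5 and 2588.5 UMIs. The 1d ratio lay just under the 2-fold line and was not counted as higher.

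The make-up of this class changed between libraries. The subcluster led by F13a1 and Ms4a6c, genes of monocytes, had 59, 177 and 296 cells in Ctrl, 1d and 7d, and the one led by the complement genes C1qa and C1qb had 93, 32 and 22. Il6ra stood at 169, 222 and 293 CPM in the F13a1 subcluster and at 38.5, 74.4 and 145 in the C1qa subcluster. The order Ctrl, 1d, 7d from low to high was thus found within both of these subclusters, but in the F13a1 subcluster the 7d ratio was 1.74 (1.28 to 2.41), not past 2-fold, and the ratio of 7d to Ctrl over the whole class also holds the shift between subclusters.

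Il6 in monocyte and macrophage-like cells stood at 8.57, 21.9 and 3.98 CPM, from 19, 59 and 8 UMIs. The 1d ratio was 2.56 (1.503 to 4.54) and the 7d ratio 0.464 (0.176 to 1.11). The 1d ratio was 1.60 at Leiden resolution 0.5, and the 7d ratio was 1.47 with doublets kept and 0.950 at that resolution. Clcf1 stood at 6.31, 3.71 and 16.4, with a 7d ratio of 2.60 (1.35 to 5.26) that was 1.73 with doublets kept and 1.76 at resolution 0.5. Il6st stood at 28.4, 43.8 and 49.2, with ratios of 1.54 (1.13 to 2.13) and 1.73 (1.25 to 2.42). Il6ra and Il6st UMIs were found in the same cell in 17 of 503 Ctrl cells, 54 of 393 at 1d and 63 of 341 at 7d, at unequal depth. Lif stood at 31.6, 34.2 and 44.7, and Osm at 235, 265 and 261, all within 2-fold of Ctrl. Socs3 stood at 193, 160 and 83.5, with ratios of 0.826 (0.721 to 0.946) and 0.432 (0.359 to 0.517), and within the F13a1 subcluster the 7d ratio of Socs3 was 0.531 (0.360 to 0.803), not past 2-fold. Of the 8 genes with at least 20 UMIs, 1 was higher at 1d (Il6) and 0 lower, where 7.2% of the genes of the class were higher and 3.56% lower. At 7d, 2 were higher (Clcf1 and Il6ra) and 2 lower (Il6 and Socs3), where 8.63% were higher and 9.0% lower.

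Across the other classes Il6ra was found in white blood cells of most kinds. In neutrophil-like cells it stood at 60.6, 50.6 and 144 CPM, with a 7d ratio of 2.37 (1.72 to 3.21) that was not past 2-fold under a stricter filter (1.54), with doublets kept (1.88), at Leiden resolution 2 (1.52) or with TMM factors (1.82). In conventional dendritic cell-like cells it stood at 73.2, 117 and 148, with a 7d ratio of 2.03 (1.51 to 2.75) that was 1.73 thinned and 1.85 under a stricter filter. In B cell-like cells it stood at 39.8, 37.8 and 74.9 and in T cell-like cells at 36.1, 51.4 and 59.5, with 7d ratios of 1.88 (1.39 to 2.53) and 1.65 (1.37 to 1.99). The 7d level was above Ctrl in all 4 of these classes. Plasmacytoid dendritic cell-like cells, of which Ctrl held 27, went the other way, at 149, 118 and 91.6 with overlapping intervals, and erythroid cell-like cells held 11, 4 and 10 UMIs, with a 7d ratio of 0.179 (0.0683 to 0.465). In erythroid cell-like cells both genes with at least 20 UMIs were lower at 1d (Osm and Socs3) and all 4 were lower at 7d (also Clcf1 and Il6ra), where 20.1% and 29.9% of genes were lower and 33.5% and 28.7% higher. Different clusters held most of that class, since the cluster led by Slc4a1 had 8 Ctrl, 93 1d and 369 7d cells and the other 2 had 64 and 79 Ctrl cells, so this shift and a change within the cells cannot be told apart. At 7d the order from high to low was monocyte and macrophage-like, conventional dendritic cell-like, neutrophil-like, then the other classes, and the intervals of conventional dendritic cell-like (126 to 173) and neutrophil-like cells (106 to 190.5) overlapped.

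**Figure D3:**
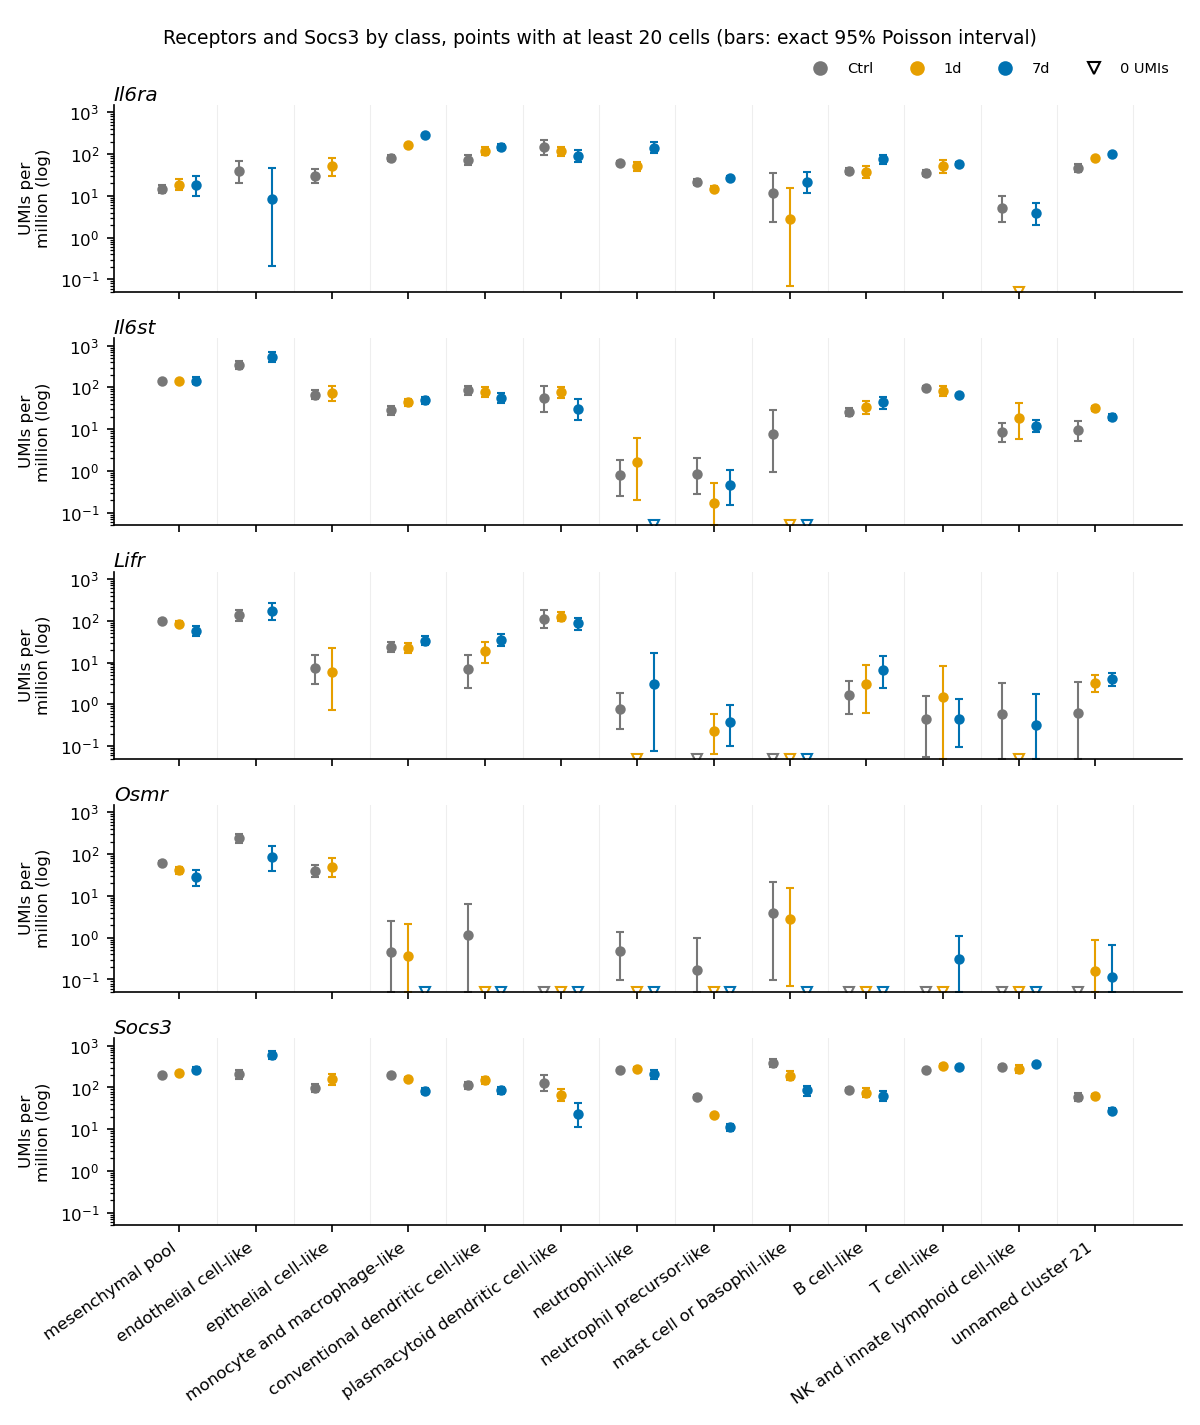
CPM (log axis) of the 4 receptor genes and Socs3 by class in Ctrl, 1d and 7d, for points with at least 20 cells, with exact 95% Poisson intervals; open triangles mark 0 UMIs and some bars go on below the axis. Osmr lies between 27.7 and 237 in the mesenchymal pool and in endothelial and epithelial cell-like cells and below 5 elsewhere, while Il6ra in monocyte and macrophage-like cells stands at 80.7, 161 and 279.

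The other receptor chains had narrower patterns. Osmr was nearly limited to cells that are not of the blood. It stood highest in endothelial cell-like cells, at 237, 169 and 84.2 CPM, next in the pool, and in epithelial cell-like cells at 48.4 at 1d and 39.4 in Ctrl. Endothelial cell-like cells, the pool and epithelial cell-like cells held 13.7%, 76.6% and 7.14% of the 518 Osmr UMIs in Ctrl, and B cell-like cells held none in any library. Il6st was highest in endothelial cell-like cells, at 347, 393 and 539, and then in the pool. T cell-like cells followed at 99.04, 82.3 and 64.3, with a 7d ratio of 0.649 (0.567 to 0.743) that was 0.989 (0.793 to 1.24) in their cluster led by Ikzf2 and Trac, 0.523 in the one led by Cd8b1 and 0.492 in the one led by Ctla4. Neutrophil-like cells held 5, 2 and 0 Il6st UMIs. Neutrophil-like cells thus had RNA for the receptor that binds IL-6 and almost none for the chain it signals through. Lifr outside the pool was found in endothelial cell-like cells, at 137, 56.2 and 168, and in plasmacytoid dendritic cell-like cells, at 112, 126 and 86.9. In conventional dendritic cell-like cells Lifr stood at 6.86, 18.6 and 35.5, with a 7d ratio of 5.17 (2.17 to 14.9) from 39 UMIs at 7d and 6 in Ctrl. In that class 0 of 5 genes were called at 1d, where 5.15% of genes were higher and 3.33% lower, and at 7d 2 of 7 were higher (Il6ra and Lifr) and 1 lower (Il6), where 8.75% were higher and 10.6% lower.

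Cells with UMIs of both chains of a receptor pair were counted as a description, since depth sets how often both are seen. Il6st and Osmr were found together in 149 of 652 Ctrl pool cells, 48 of 225 at 1d and 16 of 86 at 7d. Il6st and Lifr were found together in 123, 48 and 15 pool cells. In endothelial cell-like cells Il6st and Osmr were found together in 30 of 63 Ctrl cells, 4 of 9 at 1d and 7 of 25 at 7d.

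In its main source classes, Osm was lower in the precursor class taken whole at both times and within 2-fold of Ctrl in neutrophil-like cells. Within the 3 clusters of the precursor class it was below Ctrl at 1d in each, with no ratio past 2-fold at either time. In neutrophil-like cells Osm stood at 424, 365 and 569 CPM, with ratios of 0.861 (0.776 to 0.954) and 1.34 (1.15 to 1.56). The 7d value is not stable, at 0.880 under a stricter cell filter and 0.957 with doublets kept. In neutrophil precursor-like cells Osm stood at 256, 114 and 118, with ratios of 0.445 (0.415 to 0.476) and 0.460 (0.427 to 0.497). This class joined 3 clusters whose numbers shifted, since the most mature one, led by the granule genes Ltf and Ngp, had 313, 838 and 204 cells and the least mature, led by Elane and Prtn3, had 32, 208 and 345. Within the Ltf and Ngp cluster Osm stood at 354, 236 and 310, with a 7d ratio of 0.876 (0.777 to 0.985). The 7d ratio was 0.920 (0.759 to 1.12) in the cluster led by Camp and Fcnb and 1.87 (1.40 to 2.57) in the Elane cluster. The 1d ratios in these 3 clusters were 0.666 (0.617 to 0.720), 0.519 (0.433 to 0.624) and 0.519 (0.368 to 0.742). All 3 of these intervals lay below 1, and no cluster was past 2-fold. Named at the finer clustering, the precursor class gave Osm ratios of 1.15 at 1d and 1.10 at 7d, so its direction rests on which cells are counted as precursors. At 1d, 2 of 4 genes with at least 20 UMIs were lower in the precursor class (Osm and Socs3), where 8.13% of genes were lower and 10.3% higher, and at 7d these 2 of 5 genes were lower and Clcf1 was higher, where 10.3% were lower and 31.7% higher. That Clcf1 call was lost with TMM factors, at 1.63, and at Leiden resolution 0.5, at 1.78. In neutrophil-like cells 0 of 4 genes were called at 1d, where 7.71% of genes were lower and 3.17% higher, and 2 of 4 were higher at 7d (Lif and Il6ra), where 17.6% were lower and 15.5% higher.

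Cluster 21 held more cytokine RNA after irradiation. It had 51 Ctrl, 312 1d and 436 7d cells, with median depths of 24443, 16114.5 and 17653 UMIs. Lif stood at 8.11, 32.1 and 24.1 CPM and Osm at 36.2, 98.2 and 90.7. Both were above Ctrl at both times, with Lif ratios of 3.96 (2.26 to 7.56) and 2.97 (1.70 to 5.67) and Osm ratios of 2.71 (2.07 to 3.61) and 2.51 (1.92 to 3.33). The 7d Lif level of 24.1 lay below that of monocyte and macrophage-like cells (44.7) and above that of the pool (9.63). Il6 held 3, 50 and 176 UMIs there, at 1.87, 7.75 and 20.7 CPM, with ratios of 4.14 (1.34 to 20.8) and 11.04 (3.72 to 54.1) against the 3 UMIs of Ctrl. Il6ra stood at 46.2, 78.5 and 98.2. Of the genes with at least 20 UMIs, 5 of 8 were higher at 1d, where 7.83% of the genes of the cluster were, and 8 of 9 at 7d, where 8.27% were. The 1 lower at 7d was Socs3, at 59.3, 62.3 and 28.0, where 7.13% of genes were lower. At the finer clustering, a cluster led by Pf4 and Nrgn met the megakaryocyte list, with 29, 116 and 168 cells in Ctrl, 1d and 7d. Another, led by F13a1 and Mpo, met the neutrophil precursor list, with 22, 198 and 263 cells. Both share leading genes with cluster 21, but how many of its cells they hold was not counted. With 51 Ctrl cells and no class name, a change in which cells make up cluster 21 and a change within them cannot be told apart.

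Lymphoid cells were the main holders of Clcf1 outside the pool. NK and innate lymphoid cell-like cells had the highest level, at 80.1, 69.9 and 125 CPM, with a 7d ratio of 1.55 (1.28 to 1.90), and T cell-like cells stood at 32.9, 36.7 and 52.8, with a 7d ratio of 1.60 (1.32 to 1.96). Both 7d intervals lay above 1, and neither ratio reached 2. None of the 5 genes with at least 20 UMIs in NK and innate lymphoid cell-like cells or of the 6 in T cell-like cells was called at 7d, where 4.85% and 4.1% of genes were higher and 6.89% and 6.78% lower. At 1d Il6st was higher in NK and innate lymphoid cell-like cells, at a ratio of 2.11 (0.601 to 6.12) from 5 UMIs at 1d and 15 in Ctrl, where 3.82% of genes were higher and 10.0% lower, and no gene was called in T cell-like cells, where 3.8% were higher and 6.12% lower. A small lymphoid subcluster led by Calca, Il2ra and Il17a, of 27, 15 and 33 cells, held 22, 0 and 17 Lif UMIs. In neutrophil-like cells Lif stood at 10.2, 10.96 and 35.9, with a 7d ratio of 3.51 (1.73 to 6.56) from 12 UMIs.

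Socs3 was found in every class with at least 20 cells, and its level moved differently between them. It was within 2-fold of Ctrl in lymphoid cells, at 264, 326 and 308 CPM in T cell-like cells and at 316, 276 and 359 in NK and innate lymphoid cell-like cells. It was lower in neutrophil precursor-like cells, at 59.3, 21.5 and 11.2, with ratios of 0.362 (0.312 to 0.421) and 0.189 (0.152 to 0.233). Named at Leiden resolution 2, that class gave 0.822 at 1d and 0.443 at 7d. Within its clusters led by Ltf, Camp and Elane, the 1d ratios of Socs3 were 0.501, 0.738 and 0.307 and the 7d ratios 0.450, 0.566 and 0.279. Endothelial cell-like cells stood at 207, 187 and 598. Neutrophil-like cells stood at 259, 277 and 210, within 2-fold of Ctrl.

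**Figure D4:**
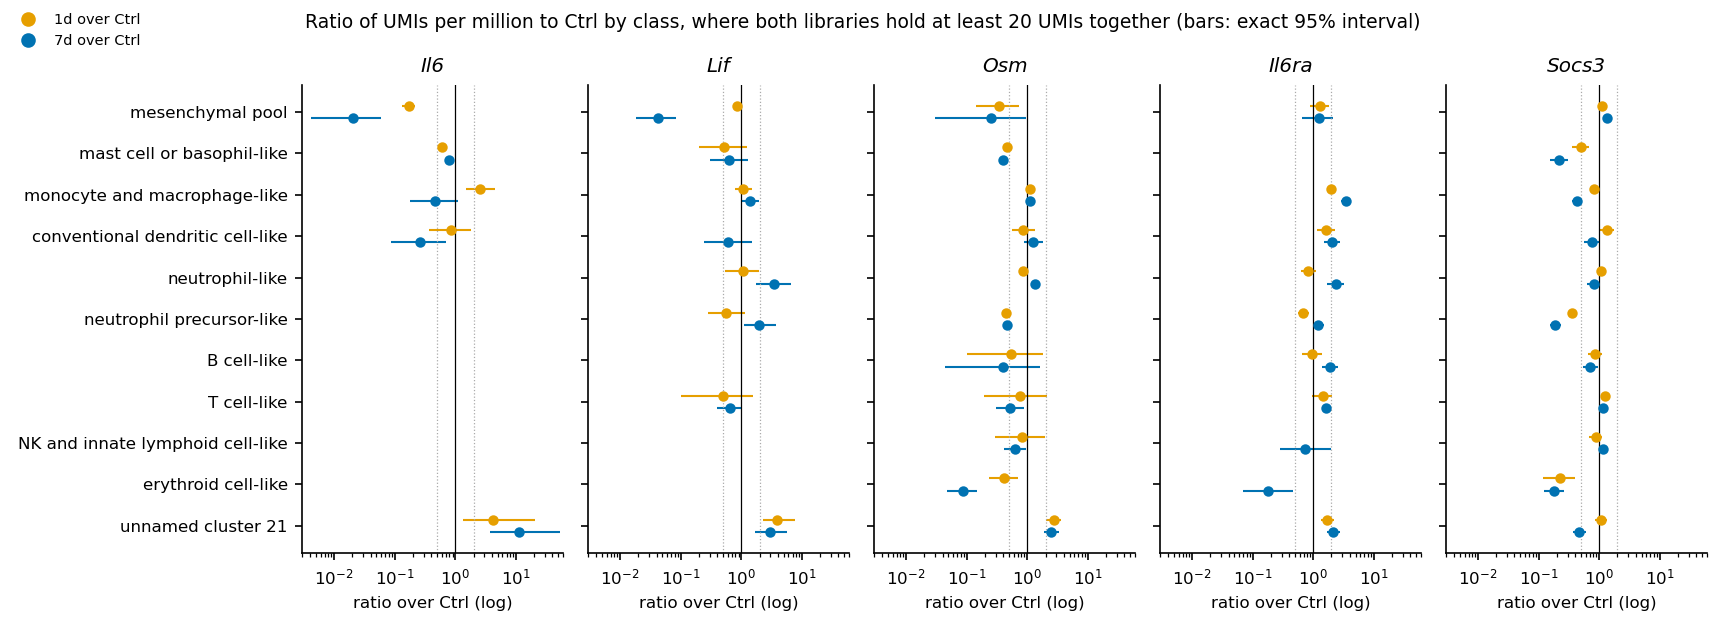
Ratio to Ctrl (log axis) of CPM of 5 of the genes by class, 1d in orange and 7d in blue, with exact 95% intervals, a solid line at 1 and dotted lines at 2 and 0.5. Il6ra at 7d lies at 3.45 in monocyte and macrophage-like cells and 2.37 in neutrophil-like cells, and Lif at 7d lies at 0.0430 in the mesenchymal pool and 3.51 in neutrophil-like cells.

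Lists of related genes were read in the pool beside these members. Of the other cytokines and receptors of the family, 4 of 11 had at least 20 UMIs. At 1d Ctf1 was higher and none was lower. At 7d, 2 were higher, namely Ctf1, for cardiotrophin 1, at 10.8 CPM at 7d against 1.89 in Ctrl with a ratio of 5.74 (2.13 to 14.8), and Cntfr, for the ciliary neurotrophic factor receptor, with a ratio of 2.09 (1.63 to 2.64). Il11ra1, for the receptor of IL-11, stood at 248 at 7d and 172 in Ctrl, with a ratio of 1.44 (1.24 to 1.68), so the receptor RNA was not below Ctrl where the ligand's was. Of 16 genes of JAK and STAT signalling, 0 were called at 1d, and at 7d 5 were lower and 2 higher with a median log2 ratio of −0.52. Stat3, the main transcription factor of the pathway, stood at 177 CPM at 7d and 463 in Ctrl, with a ratio of 0.382 (0.322 to 0.451), and the kinase genes Jak1 and Jak2 had ratios of 0.355 and 0.376. Of the 4 genes of receptor shedding, Adam10, a protease that cuts membrane proteins, was higher at 7d, at 155 CPM against 64.5 in Ctrl, with a ratio of 2.41 (1.96 to 2.94). List calls were made without TMM factors, which moved all 7d log2 ratios of the pool by −0.35. The intervals of Adam10 and Cntfr reached below 2.

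Of 20 known STAT3 target genes, 1 was higher and 4 lower in the pool at 1d, and 2 of 19 were higher and 11 lower at 7d with a median log2 ratio of −1.09. The acute phase gene Serpina3n had a 1d ratio of 0.209 (0.124 to 0.333) and Saa3 one of 4.79 (2.57 to 9.23). At 7d the chemokine gene Ccl2 stood at 31.3 CPM against 583 in Ctrl, with a ratio of 0.0537 (0.0350 to 0.0788), and Lcn2, also a neutrophil gene, had a ratio of 0.0546 (0.0177 to 0.128). Of inflammatory genes often induced with Il6, 2 of 9 were lower at 1d and 7 of 9 at 7d, with a median log2 ratio of −2.67 at 7d. Cxcl2 had a 7d ratio of 0.0984 (0.0680 to 0.138), and Ptgs2, for cyclooxygenase 2, stood at 199.8 CPM at 7d against 1277 in Ctrl. Il1b had 0 UMIs at 7d and 404 in Ctrl. Neutrophil-like cells of Ctrl held these genes at a summed 28101 CPM, and the summed neutrophil markers of the pool, 166 CPM at 7d and 2933 in Ctrl, moved with the list. Their part in it was not tested. These lists were compared with the share of all pool genes called, 12.9% lower and 17.7% higher at 7d, and no set was tested. Genes known to answer to tissue digestion, such as Fos and Hspa1a, moved as well. Of 18, 1 was higher and 0 lower at 1d, and 1 was higher and 5 lower at 7d, with summed levels of 21162, 28281 and 16385 CPM in Ctrl, 1d and 7d. Their part in the levels of Il6, Lif and Socs3 was not tested.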

How the data were processed

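The authors deposited UMI counts per gene and cell barcode, made with Cell Ranger 6.1.1 per the file headers; CASAVA 1.8 and Seurat are also named in the submitters' processing notes, with build mm10. Alignment settings were not given in the sources used. The members and all gene lists were chosen with earlier results of these data known. The naming rule, which asks for 3 or more markers of a list, was set with the clusters in view.

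A cell needed 500 UMIs, 250 genes and no more than 15% mitochondrial UMIs. Haemoglobin was not itself a filter, and clusters led by haemoglobin genes stayed among the cells used. Of the barcodes that failed, 2349, 756 and 1094 in Ctrl, 1d and 7d had over 50% haemoglobin UMIs and served to read free RNA. Doublets came from Scrublet in scanpy 1.11.5: the automatic call in Ctrl (257), and, where it called under 0.5% of cells, the top scores at 0.8% per 1000 barcodes (248 in 1d, 403 in 7d). Clusters used 2000 variable genes, 30 components, 15 neighbours and Leiden resolution 1, with resolution 2 for subclusters and no correction between libraries. UMIs were summed per class and library, and a ratio needed 30 cells on each side. List medians used a pseudocount of 0.5 UMIs. Named list genes were up to 4 per list whose nearer interval end lay furthest from 1. The ratio interval was tested on simulated independent Poisson counts. These leave out the gathering of UMIs in single cells, so the interval was not tested for that. Total UMIs per library were 41048084, 46119700 and 49998293 in Ctrl, 1d and 7d. Gene positions are from GENCODE M21 (GRCm38). TMM factors came from edgeR 4.0.16. Some genes and 1 subcluster are not reported here.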

Additional observations from a re-analysis of the deposited data

Results flagged for a closer look

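Some genes moved in opposite directions in different classes under the same comparison, and the difference between the classes was not tested because each group was 1 library. Il6 at 1d had a ratio to Ctrl of 2.56 in monocyte and macrophage-like cells and 0.170 in the mesenchymal pool. Lif at 7d had a ratio of 3.51 in neutrophil-like cells, from 12 UMIs, and 0.0430 in the pool. Clcf1 at 7d had a ratio of 2.60 in monocyte and macrophage-like cells, 0.408 in the pool and 0.307 in erythroid cell-like cells. Il6ra at 7d had ratios of 3.45 in monocyte and macrophage-like, 2.37 in neutrophil-like and 2.03 in conventional dendritic cell-like cells, against 0.179 in erythroid cell-like cells. Different clusters held most of the erythroid cell-like class in Ctrl and at 7d, so that shift and a change within the cells cannot be told apart, and several of these ratios were not past 2-fold under other settings.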

How the results depend on the processing

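No paired analysis was possible because each group was 1 library. The alternatives were a stricter filter, doublets kept, Leiden resolutions of 0.5 and 2, clustering without the members and lists, thinning to 1000 UMIs per cell, subtraction of 5% free RNA and TMM factors; the pool without its Rgs5 subcluster and each pool cluster alone were chosen after seeing the data. Of 214 alternative values of member ratios in the pool, 177 lay within the interval of the reported value, 32 moved outside it, and 5 moved outside it and to the other side of 1 where the reported interval did not include 1; in other classes these numbers were 590, 56 and 10 of 656, and of 60 shares 25 stayed within the interval and 35 moved. Il6, Osm, Il11, Clcf1 and Osmr were below Ctrl in the pool at both times under every alternative that gave a value. At 1d Il6 ran from 0.115 to 0.411 and Osm from 0.188 to 0.961. With doublets kept, the number of members past 2-fold in the pool at 1d was 1, the 7d Lifr ratio in the pool was 2.14, Osm in erythroid cell-like cells at 1d was 1.15, Lif in monocyte and macrophage-like cells at 7d was 0.872 and Osm in neutrophil-like cells at 7d was 0.957; the stricter filter gave 0.880 for the last. Thinned, the 1d ratio of Socs3 was 0.763 in the pool, those of Osm and Il6st were 0.942 and 0.872 in monocyte and macrophage-like cells, and that of Osm was 1.02 in neutrophil-like cells. The Bmp2 cluster alone gave 1.13 for Lif and 1.14 for Lifr at 1d, 3.06 for Lifr at 7d, and a median log2 ratio of −2.47 over the 10 members at 7d, from 25 cells. At resolution 2, neutrophil precursor-like cells gave 1.15 for Osm and 1.60 for Il6ra at 1d and 1.10 for Osm at 7d. Except where a step removes or regroups cells by construction, the cause was not tested. Depth limits the pool at 7d, where Il6, Lif, Il11, Osm and Clcf1 had 3, 8, 9, 2 and 8 UMIs.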

Other observations

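Over 45 points of class and library with at least 30 cells, the 3 genes of 13279 with the pattern most like Il6 on the log2 scale were Slco2b1, Spin4 and Mboat1 (Pearson r of 0.82, 0.80 and 0.80). For Lif they were Eid3, Ptgs2 and Metrnl (0.81, 0.77 and 0.76), for Osm Lilrb4a, Fcgr3 and Ccl3 (0.94, 0.93 and 0.93), for Il6ra 5031439G07Rik, Rbm47 and Ctsz (0.785, 0.756 and 0.727), and for Socs3 Fosl2, Junb and Nr4a3 (0.850, 0.815 and 0.763). Points share libraries and depth, so these values are a description.

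Called doublets of the pool numbered 11, 41 and 25 in Ctrl, 1d and 7d and held 9, 30 and 205 Lifr UMIs. In the whole 7d library, 33 of 403 called doublets held 231 Lifr UMIs, while the 6094 cells used held 265. Ebi3, a subunit of IL-27 and not among the 10 genes, stood at 76.7, 88.6 and 83.8 CPM in Ctrl, 1d and 7d in neutrophil-like cells and at 94.4, 72.7 and 42.9 in their precursors.

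In monocyte and macrophage-like cells, 6 of 9 inflammatory genes often induced with Il6 were lower at 7d and 0 higher, with a median log2 ratio of −2.08, where 9.0% of the genes of the class were lower. Il1b stood there at 102 CPM at 7d and 1332 in Ctrl, with a ratio of 0.0769 (0.0664 to 0.0886), and Cxcl2 at 1458 and 6179.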
